A study of Homo sapiens with 12 samples.

Results

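MDA-MB-231, a triple-negative breast cancer cell line with a mesenchymal look in culture, was compared with the other 3 cancer lines of a series of RNA sequencing libraries. Its 3 libraries, of 12 in all, were chosen by cell line alone, and genes were then sought whose level was high, low or without counts in all 3 of them against every one of the 9 other libraries. The others were HCC1954, from an ERBB2-amplified breast cancer, and the ovarian cancer lines OVCAR8 and SKOV3. By the labels, each line had a library of control cells, another of cells with a SIVA-WT vector and a last one of cells with a SIVA-D160N vector. SIVA1 encodes a protein of apoptosis signalling, and D160N is a changed residue in it. The labels call the control cells parental and untreated, while the study's methods also describe an empty vector. All cells grew in RPMI-1640 with serum, and the vector carriers were linearized-plasmid transfectants kept under hygromycin. The study describes the transfectants of HCC1954, OVCAR8 and SKOV3 as polyclonal. For MDA-MB-231 it speaks only of stable expression, in a derivative that carries luciferase, while the labels name the line alone. The 3 libraries of a line therefore share one cell line and differ in their vector, and no repeat of the same vector in the same line was analysed here.

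The total counts were 39248227 to 45890398 in MDA-MB-231 and 35791455 to 43898026 in the other lines, so depth was alike. At this depth a gene with 0 counts is limited to 0.0666 to 0.0757 CPM (the usual depth-scaled unit of counts, here with TMM scaling) in the MDA-MB-231 libraries, taking 3 counts as the limit, which covers counting error only. The 3 MDA-MB-231 libraries resembled each other (Pearson r of log2(CPM + 1) over the 19204 genes tested from 0.992 to 0.997, across genes). They were further from OVCAR8 (0.883 to 0.902), SKOV3 (0.879 to 0.890) and HCC1954 (0.836 to 0.863). SIVA1 was at 28.2, 80.6 and 68.4 CPM in the control, SIVA-WT and SIVA-D160N libraries of MDA-MB-231, so both vector libraries were above the control. In HCC1954 the library labelled as the parental control had 0 SIVA1 counts, while its vector libraries were at 37.8 and 26.4 CPM and the controls of OVCAR8 and SKOV3 at 65.7 and 52.4 CPM. This library thus stood apart from the other controls in the gene the vectors carry. The study's supplementary blots list a lane of HCC1954 with a SIVA knockout. The labels do not tell whether such cells were used for this library. Without it, edgeR called 628 genes high and 933 low. The library rule described below found 179 high, 197 low, 93 absent and 32 counted in MDA-MB-231 alone. Counts by that rule cannot fall when a library is left out. Values of 3 libraries are given in the order control, SIVA-WT and SIVA-D160N throughout.

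Breast cancer lines are often placed along an axis from epithelial to mesenchymal. Epithelial cells hold together through E-cadherin, claudins and other junction proteins under the control of factors such as GRHL2 and OVOL2, whereas mesenchymal cells use vimentin filaments, and factors such as ZEB1 and TWIST1 repress the junction genes. MDA-MB-231 is widely used as a mesenchymal, claudin-low model of invasion. It carries activating changes in the RAS and RAF genes, and ERK signalling leaves a transcript trace in feedback inhibitors such as the DUSP and SPRY genes.

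Of the 19204 genes tested with edgeR's quasi-likelihood method, 594 were called high in MDA-MB-231 (3.09%) and 917 were called low (4.78%). A gene was called where its FDR was under 0.05 and its log2 fold change was 1.5 or more, in one direction, against each of the 3 other lines. The p-values measure the spread between libraries of one line under different vectors and not the spread between cell lines. With 1 line against 3 lines, an exact permutation over lines could not go below p = 0.25. Among the 917 low genes, 352 were at 1 CPM or more in all 9 other libraries, and 468 had another line in which every library was also under 1 CPM. Among the 594 high genes, 432 were at 1 CPM or more in all 3 MDA-MB-231 libraries. The calls in each gene list below are to be read beside the shares over all genes tested, 3.09% high and 4.78% low.

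A stricter reading used the libraries directly, with no test. By this rule 175 genes (0.501% of the 34909 genes with at least 1 count) were high, with the lowest MDA-MB-231 library at 1 CPM or more and at least 4 times the highest of the 9 others. By the mirrored rule 184 genes (0.527%) were low. Of these, 85 genes (0.243%) were absent, with at most 3 counts in each MDA-MB-231 library and at least 1 CPM in all 9 others. Of the high genes, 32 (0.0917%) were counted in MDA-MB-231 alone, with at most 3 counts in every other library. Just inside the 4-fold limit for high genes stood CD163L1 at 4.12-fold, and just outside it stood SOX6 at 3.99-fold and GLRX at 3.98-fold. For low genes PRRG4 stood just inside at 4.06-fold, and L1CAM at 3.98-fold stood just outside. The same rules found more high genes in each of the other lines (700 in HCC1954, 550 in OVCAR8 and 322 in SKOV3), whereas of the other lines HCC1954 had more absent genes (108) and OVCAR8 and SKOV3 fewer (32 and 45). MDA-MB-231 had the fewest high genes of the 4 lines by either rule.

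**Figure D1:**
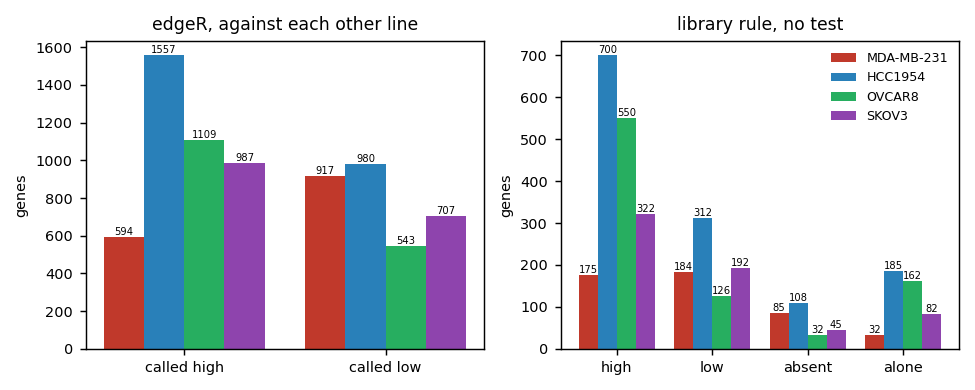
Number of genes set apart in each of the 4 cell lines, from edgeR contrasts against each other line (left) and from the library rule (right); each bar is 1 line and its height the number of genes, printed above it. MDA-MB-231 had 594 called high and 917 called low, and by the library rule 175 high, 184 low, 85 absent and 32 counted in it alone.

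VIM, which encodes the intermediate filament vimentin and is the usual mesenchymal marker of this line, did not set MDA-MB-231 apart from every other line. VIM was at 3943, 3235 and 3249 CPM in MDA-MB-231, 3228, 2913 and 3121 CPM in OVCAR8 and 3702, 3798 and 3508 CPM in SKOV3, with the SKOV3 libraries inside the range of MDA-MB-231 and those of OVCAR8 below it. In HCC1954 it was at 94.9, 159 and 289 CPM, well under all others. The log2 fold change of MDA-MB-231 was 4.33 ± 0.32 (SE) against HCC1954 (edgeR FDR = 2.21e-07), 0.18 ± 0.27 against OVCAR8 (FDR = 0.6) and -0.08 ± 0.27 against SKOV3 (FDR = 0.833). VIM thus marked MDA-MB-231 against HCC1954 and did not pass the test against the ovarian lines.

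Of the 19 tested mesenchymal markers and EMT factors (20 listed), 1 was called high and 3 were called low, with a median log2 fold change of -0.61 against the mean of the other lines and -0.06 over all genes tested. TGFBR2, the type II receptor for TGF-beta, was the gene that was high. It was at 599, 595 and 518 CPM in MDA-MB-231 and 32.4 to 149.6 CPM in the 9 other libraries, with no overlap, and its log2 fold change against their mean was 2.84 ± 0.12 (edgeR FDR = 3.16e-09). TWIST1 and TWIST2, both basic helix-loop-helix EMT factors, had 0 counts in every MDA-MB-231 library. TWIST1 was at 0.905 to 8.91 CPM and TWIST2 at 1.52 to 14.1 CPM in the others, where both were higher in the ovarian lines than in HCC1954. CDH11, a mesenchymal cadherin, was at 0.377, 0 and 0.171 CPM in MDA-MB-231 and 5.03 to 32.1 CPM elsewhere.

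Other members of the list were shared with 1 or more lines. ZEB1, the main repressor of E-cadherin, was at 109, 96.5 and 97.1 CPM in MDA-MB-231, which was above HCC1954 (0.167 to 1.62 CPM) and OVCAR8 (19.8 to 33.3 CPM) and overlapped SKOV3 (73.5 to 97.9 CPM). The log2 fold change against SKOV3 was 0.26 ± 0.31 (edgeR FDR = 0.476). AXL, a receptor tyrosine kinase of mesenchymal cells, was at 1088, 1086 and 959 CPM and above all 9 others, which were at 3.10 to 742 CPM, but its log2 fold changes against the ovarian lines, 0.81 ± 0.26 and 0.90 ± 0.27, were under 1.5. CDH2, which encodes N-cadherin, was at 0.133, 0.202 and 0.195 CPM in MDA-MB-231 and under 1 CPM in HCC1954 too, against 172 to 197 CPM in OVCAR8 and 111 to 147 CPM in SKOV3. SPARC, a secreted matrix protein, was at 6.61, 5.10 and 4.51 CPM, above HCC1954 (0.681 to 2.80 CPM) and below OVCAR8 and SKOV3 (372 to 460.5 and 88.9 to 151 CPM). TGFBI, a matrix protein induced by TGF-beta, was at 779, 795 and 744 CPM against 94.98 to 599.8 CPM, and FN1, which encodes fibronectin, was at 247, 248 and 188 CPM within the range of the others (99.2 to 340.1 CPM).

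**Figure D2:**
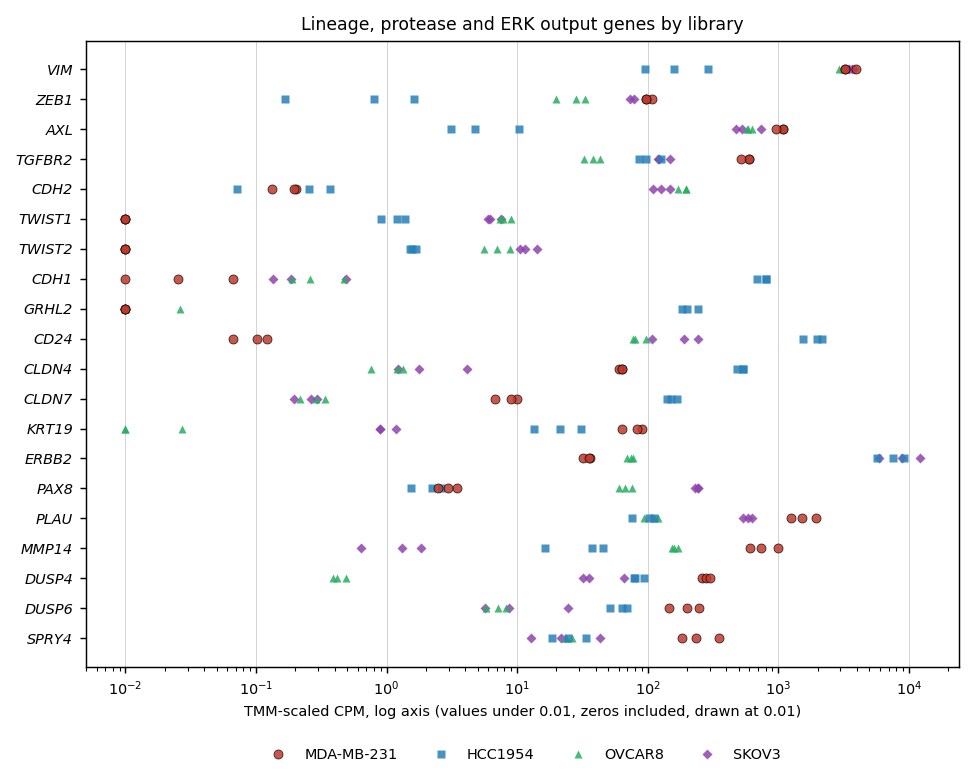
Level of 20 lineage, protease and ERK output genes in each of the 12 libraries, in TMM-scaled CPM on a log axis, with 1 point per library coloured by line and values under 0.01 drawn at 0.01. VIM points of MDA-MB-231, OVCAR8 and SKOV3 lie together, while CD24 in MDA-MB-231 lies far to the left of all others and TGFBR2, MMP14, DUSP4 and SPRY4 lie to the right.

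Of 33 tested genes of epithelial identity and junctions, 1 was called high and 6 low in MDA-MB-231, and the median log2 fold change against the mean was -2.99. CDH1 and GRHL2 set HCC1954 apart from the other 3 lines. CDH1 (E-cadherin) was at 0.0666, 0.0252 and 0 CPM in MDA-MB-231 and at 691 to 808 CPM in HCC1954, but it was at 0.190 to 0.470 CPM in OVCAR8 and 0.134 to 0.491 CPM in SKOV3. GRHL2, a master regulator of epithelial genes, had 0 counts in all 3 MDA-MB-231 libraries and no more than 1 count in any ovarian library. The low call of CDH1 therefore compared MDA-MB-231 with HCC1954, which used the gene, and with ovarian lines that hardly did. OVOL2 and LAD1 were also called low, and their levels in each line are not given here.

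CD24, MUC1 and CLDN1 were low against lines that did use them. CD24 encodes a small mucin-like surface protein whose absence, together with CD44, marks stem-like breast cancer cells. It had 3, 4 and 5 counts in MDA-MB-231, that is 0.0666, 0.101 and 0.122 CPM, against 77.3 to 2176 CPM in the other 9 libraries. The lowest other library was 634-fold above the highest of MDA-MB-231. CD24 has processed copies elsewhere in the genome, and how reads shared with them were counted is not given in the sources used here. CD44, the other gene of that surface phenotype, was at 498, 510.3 and 502 CPM and lay within the range of the other lines (355 to 731 CPM).

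MUC1, a membrane mucin, was at 0.976, 0.706 and 0.634 CPM against 2.60 to 195 CPM in the others. CLDN1, a tight junction claudin, was at 1.02, 0.631 and 0.122 CPM against 3.14 to 585 CPM. Its 3 MDA-MB-231 libraries differed, and the SIVA-D160N library was the lowest. KRT19, a simple-epithelium keratin, was the epithelial gene called high, at 89.999, 83.4 and 64.1 CPM in MDA-MB-231, 13.5 to 30.6 CPM in HCC1954 and no more than 1.19 CPM in the ovarian lines.

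The claudins did not move together. CLDN3 had 0 counts in every MDA-MB-231 library and also in SKOV3. CLDN4 was at 63.3, 60.8 and 63.6 CPM in MDA-MB-231, between HCC1954 (481 to 541 CPM) and the ovarian lines (0.761 to 1.33 CPM in OVCAR8 and 1.21 to 4.15 CPM in SKOV3). The log2 fold change was -3.05 ± 0.25 against HCC1954 and 5.86 ± 0.31 against OVCAR8, with edgeR FDR = 6.03e-07 and 3e-08. CLDN7 had the same order, at 9.92, 8.91 and 6.73 CPM in MDA-MB-231, 141 to 168 CPM in HCC1954, 0.217 to 0.337 CPM in OVCAR8 and 0.196 to 0.291 CPM in SKOV3.

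Of 18 tested genes of the luminal breast and steroid receptor program, 0 were called high and 2 low. Of the low genes TFAP2A, a transcription factor of ectoderm and mammary epithelium, was at 5.68, 5.73 and 3.97 CPM against 35.1 to 82.8 CPM, and its log2 fold change against the mean was -3.28 ± 0.14 (edgeR FDR = 3.73e-09). ESR1 and PGR, the estrogen and progesterone receptors, had at most 1 count in any MDA-MB-231 library. ERBB2 was at 32.2, 36.4 and 35.6 CPM in MDA-MB-231, at 68.9 to 77.4 CPM in OVCAR8, 5706 to 9158 CPM in HCC1954 and 5941 to 12126 CPM in SKOV3. Its log2 fold change against OVCAR8 was -1.07 ± 0.18, short of the limit of 1.5. ESR1 and PGR were thus near 0 and ERBB2 was lowest in MDA-MB-231, the receptor pattern that the term triple-negative names.

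Of 15 tested basal breast markers, 1 was called high and 1 low, with a median log2 fold change of -3.89. KRT5, KRT6A, KRT6B, KRT14 and KRT17 were at 0.101 CPM or less in all 3 MDA-MB-231 libraries, and KRT6A and KRT6B had no counts there. KRT5, KRT6A and KRT6B also had at most 3 counts in every OVCAR8 library. DSC3, a desmosomal cadherin, was the low gene, with 4, 2 and 0 counts against 0.167 to 22.7 CPM. LAMB3, a chain of the basement membrane protein laminin-332, was the gene called high. It was at 1059, 818 and 692 CPM against 71.8 to 184 CPM, a log2 fold change of 2.83 ± 0.11 against the mean (edgeR FDR = 1.36e-09).

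Of 14 tested Mullerian and ovarian markers, 0 were called high and 3 low (WT1, LHX1 and LHX2), with a median log2 fold change of -5.14. WT1 had 0, 2 and 0 counts in MDA-MB-231 and 0.396 to 8.01 CPM elsewhere, with HCC1954 as high as OVCAR8. PAX8, the defining Mullerian factor, was at 3.44, 2.95 and 2.49 CPM in MDA-MB-231 and 1.54 to 2.61 CPM in HCC1954, against 60.6 to 75.7 CPM in OVCAR8 and 229 to 242 CPM in SKOV3. PAX8 thus set the ovarian lines apart from both breast lines.

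The genes with the largest gap in favour of MDA-MB-231 came from many functions. GSTM1, a glutathione transferase that is missing from the genome of many people, was at 35.6, 41.05 and 35.1 CPM and at 0 to 3 counts in each other library. Its neighbours GSTM2 (3.53, 4.01 and 2.68 CPM) and GSTM4 (28.2, 24.6 and 24.1 CPM) are close copies with levels that overlapped at least 1 other line, and how reads shared among them were counted is not given in the sources used here. GALNT13, which starts mucin-type O-glycans, was at 16.4, 13.7 and 14.7 CPM and at 3 counts or fewer in each other library. SLC22A3, an organic cation transporter, was at 10.1, 9.18 and 9.58 CPM, again with at most 3 counts elsewhere. MIR4697HG had 0 counts in all 9 other libraries and 4.75, 3.73 and 5.41 CPM in MDA-MB-231, at least 43.8-fold above the largest limit that 3 counts set in a single library.

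FOXA2, a pioneer factor of endoderm and liver, was at 18.7, 17.7 and 17.5 CPM, with 0 counts in all HCC1954 and OVCAR8 libraries and 0.0491 to 0.343 CPM in SKOV3. FBP1, the gluconeogenic enzyme fructose-1,6-bisphosphatase, was at 36.9, 57.2 and 51.5 CPM against 0 to 0.625 CPM. PDE2A, a phosphodiesterase for cyclic nucleotides, was at 245, 174 and 141 CPM against 0.334 to 4.33 CPM, and its lowest library was 32.6-fold above the highest other. CACNA2D4 (a calcium channel subunit), at 154, 75.6 and 66.3 CPM, and PAPPA2 (a protease of IGF-binding proteins), at 108, 53.03 and 33.1 CPM, were highest in the control library. GPAT2 and MPP4 were lowest in it, at 28.6, 37.1 and 38.01 CPM and 99.5, 126 and 142 CPM. For none of the genes of this paragraph did the lines overlap, which the rule that chose them required.

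**Figure D3:**
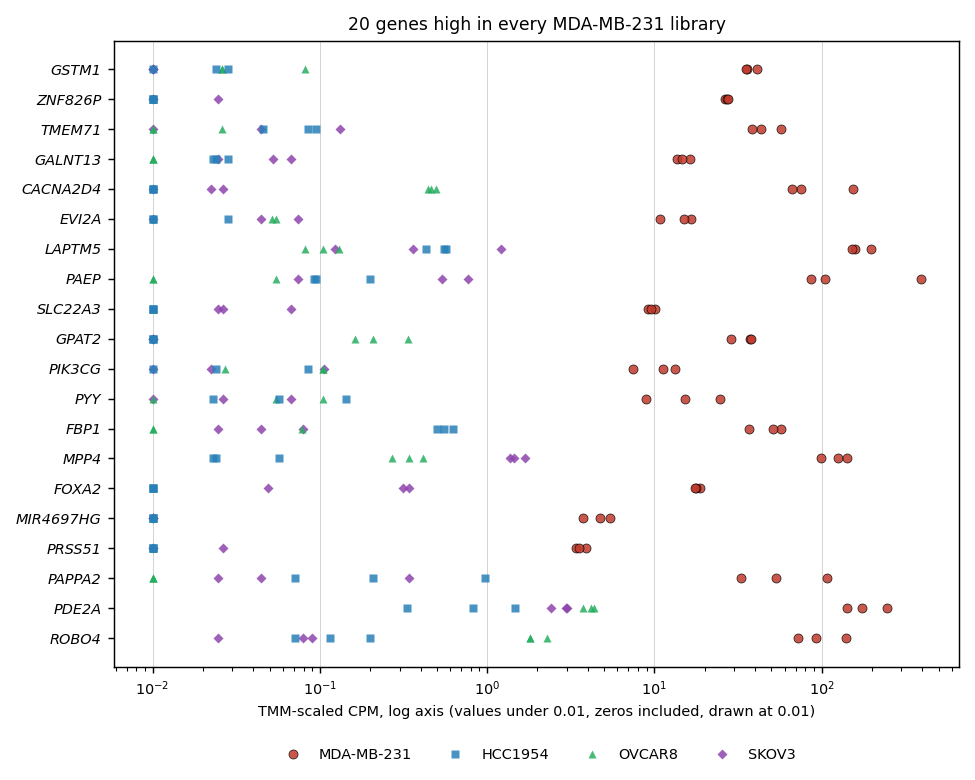
The 20 genes with the largest ratio of the lowest MDA-MB-231 library to the highest other library, in TMM-scaled CPM on a log axis; each point is 1 library, coloured by line, and values under 0.01 are drawn at 0.01. Every MDA-MB-231 point lies to the right of every other point, and PAEP, PAPPA2 and PYY spread most among the 3 MDA-MB-231 libraries.

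PAEP and PYY, both secreted products, were highest in the control library. PAEP encodes glycodelin, a lipocalin of the endometrium. It was at 393, 104 and 86.9 CPM in MDA-MB-231, so the control was well above both vector libraries, and at 0 to 0.765 CPM in the others. PYY encodes the gut hormone peptide YY and was at 24.7, 15.2 and 8.87 CPM against 0 to 0.143 CPM. Among the 20 genes with the largest gap, 12 had a RefSeq promoter window (250 bases before to 50 after the first start that RefSeq's promoter table gives for the gene, GRCh38.p14), and these 2 windows held the AP-1 motif TGANTCA, which was searched on both strands. It was found in 4.89% of the 11737 windows of tested protein-coding genes. The 20 genes were chosen by their levels and 12 had a window, so no comparison with that share is drawn. The 2 windows are shown because AP-1 is a main end point of ERK signalling. Whether AP-1 or ERK acts on either gene was not tested. Capitals mark the motif, and a match is a description of the letters only. The PYY window also overlaps the neighbouring gene NAGS (chr17:44004622-44009068), so it is not a stretch of PYY alone. NAGS was itself high by the library rule, at 39.5 to 50.9 CPM against 0.621 to 2.04 CPM.
PAEP (chr9:135561506-135561805, plus strand): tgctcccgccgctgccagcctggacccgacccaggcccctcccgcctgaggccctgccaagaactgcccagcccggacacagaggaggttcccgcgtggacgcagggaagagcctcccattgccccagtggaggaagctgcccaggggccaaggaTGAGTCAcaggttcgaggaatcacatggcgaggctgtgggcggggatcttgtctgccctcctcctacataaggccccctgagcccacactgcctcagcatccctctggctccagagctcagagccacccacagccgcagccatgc
PYY (chr17:44004396-44004695, minus strand): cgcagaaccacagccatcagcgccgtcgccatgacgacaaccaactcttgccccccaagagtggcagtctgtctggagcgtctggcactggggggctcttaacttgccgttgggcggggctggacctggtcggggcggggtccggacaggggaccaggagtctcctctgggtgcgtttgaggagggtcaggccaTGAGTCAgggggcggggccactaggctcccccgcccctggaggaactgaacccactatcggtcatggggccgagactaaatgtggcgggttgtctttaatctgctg
A comparison of the motif over all 175 high genes is void, since only 72.8% of their 114 protein-coding members had a window.

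Several high genes are best known from blood cells, a group that was noticed among the values and so is described without a test. LAPTM5, a lysosomal protein of lymphocytes, was at 197, 158 and 152 CPM against 0.0815 to 1.21 CPM, with the lowest MDA-MB-231 library 125-fold above the highest other. EVI2A was at 16.5, 15.04 and 10.9 CPM and EVI2B at 21.7, 18.2 and 14.7 CPM. Both lie within an intron of NF1 on its opposite strand, and how reads were assigned by strand in counting is not given in the sources used here. NF1 itself was at 30.7, 26.7 and 23.6 CPM, lower than in HCC1954 and SKOV3 (157 to 184 and 134 to 158 CPM) and overlapping OVCAR8 (29.7 to 47.2 CPM). PIK3CG, the gamma catalytic subunit of PI 3-kinase, was at 7.48, 11.3 and 13.2 CPM against 0 to 0.106 CPM elsewhere.

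SRGN, the proteoglycan of secretory granules, was at 376, 363 and 347 CPM in MDA-MB-231 and 42.8 to 53.1 CPM in OVCAR8, with 0.0284 to 0.0715 CPM in HCC1954 and 0.739 to 2.13 CPM in SKOV3. FMNL1, a formin of leukocyte motility, was at 343, 217 and 193 CPM against 0.529 to 21.1 CPM. NFATC2, a T cell transcription factor, was at 57.6, 72.7 and 69.5 CPM against 0.264 to 4.70 CPM, and PTPN22, a lymphoid phosphatase, at 40.02, 20.6 and 20.9 CPM against 0.326 to 1.53 CPM. FERMT3, the kindlin of blood cells, was at 34.9, 14.5 and 12.7 CPM against 0.792 to 1.96 CPM.

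The defining leukocyte markers did not follow them. Of 6 tested leukocyte markers (14 listed), 0 were called high and 0 low. PTPRC (CD45), CD3D, MS4A1 and NKG7 had 0 counts in all 3 MDA-MB-231 libraries, CD3E had 1 count in 1 of them, and CD14 was at 0.202 CPM or less. The summed level of the 14 markers was 4.54 to 7.32 CPM in MDA-MB-231 and 1.40 to 9.75 CPM in the others.

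Some endothelial genes were high too. Of 6 tested endothelial markers (8 listed), 2 were called high and 0 low. ESAM, an adhesion molecule of endothelial cells, was at 98.3, 108 and 107 CPM against 0.0981 to 6.34 CPM, a log2 fold change of 6.82 ± 0.14 against the mean (edgeR FDR = 3.04e-11). TIE1, an orphan receptor tyrosine kinase, was at 60.7, 35.5 and 38.5 CPM against 0 to 7.86 CPM. ROBO4, an endothelial guidance receptor outside the list, was at 139.6, 92.8 and 72.7 CPM against 0.0245 to 2.27 CPM. The defining markers PECAM1 and CDH5 were at 0.706 CPM or less in MDA-MB-231, and both were higher in HCC1954, at 32.4 to 62.3 and 12.4 to 25.2 CPM. The 8 endothelial markers summed to 149 to 164 CPM in MDA-MB-231 and 2.06 to 92.7 CPM in the others. In bulk RNA a level per cell and a share of cells cannot be told apart.

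Fibroblast and melanocyte markers gave no calls. Of 7 tested fibroblast markers (10 listed), 0 were called in either direction, and their summed level was 8.56 to 9.84 CPM in MDA-MB-231 against 38.8 to 533 CPM elsewhere. DCN, LUM and THY1 had 0 counts in MDA-MB-231. Of 2 tested melanocyte and neural crest markers (8 listed), 0 were called. TYR, MLANA and SOX10 had 0 counts in all 3 MDA-MB-231 libraries.

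DUSP4, DUSP6 and SPRY4, which restrain ERK signalling, were high. Of 18 tested genes of ERK pathway output, these 3 were called high and 0 low, and the median log2 fold change was 1.66, beside -0.06 over all genes. DUSP4, a nuclear phosphatase for ERK, was at 262, 279 and 299 CPM against 0.392 to 94.4 CPM in the others, and OVCAR8 was the lowest. DUSP6, the cytoplasmic ERK phosphatase, was at 245, 201 and 146 CPM against 5.69 to 69.4 CPM. SPRY4, a feedback inhibitor of receptor signalling, was at 352, 233 and 183 CPM against 12.7 to 43.4 CPM, and its log2 fold change against the mean was 3.32 ± 0.18 (edgeR FDR = 2.24e-08). For all 3 genes every MDA-MB-231 library was above every other library.

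ETV4 (146, 127 and 119 CPM) and ETV5 (209, 196 and 137 CPM), ETS factors that ERK induces, were also above all 9 other libraries, without reaching 1.5 against each line. CCND1, which encodes cyclin D1, was at 119, 178 and 208 CPM, under every HCC1954 and OVCAR8 library (1399 to 2667 and 567 to 622 CPM) and overlapping SKOV3. EGR1, an immediate early gene, spread from 324 CPM in the control to 13.4 CPM in the SIVA-D160N library, through 49.1 CPM in the SIVA-WT library.

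MMP14 was high and THBS1 low among genes of matrix turnover. Of 23 tested genes of the plasminogen and matrix protease system, 1 was called high and 1 low, with a median of -0.18. Over all genes tested 3.09% were called high and 4.78% low, so the list as a whole did not stand out. MMP14, the membrane-anchored collagenase that activates MMP2, was at 991, 739 and 610.2 CPM against 0.638 to 172 CPM, and its log2 fold change against the mean was 5.38 ± 0.17 (edgeR FDR = 3.69e-10). MMP2 itself had 0 counts in MDA-MB-231 and in OVCAR8. PLAU, which encodes urokinase, was at 1943, 1522 and 1245 CPM, above the 9 others (75.5 to 632 CPM), but its log2 fold change against SKOV3 was 1.42 ± 0.19, under the limit of 1.5. THBS1, the antiangiogenic matrix protein thrombospondin-1, was the low gene, at 39.8, 79.7 and 69.7 CPM against 197 to 2888 CPM.

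Of 25 tested metastasis genes that were described in MDA-MB-231 sublines, 2 were called high and 1 low, with a median of -0.46. HBEGF, a ligand of EGFR, was at 309, 162 and 149 CPM against 1.33 to 38.2 CPM. EREG, another EGFR ligand, was at 47.98, 17.3 and 9.92 CPM against 0 to 1.70 CPM, and the control was again the highest. NEDD9, a focal adhesion scaffold, was low at 0.222, 0.328 and 0.171 CPM against 1.13 to 216 CPM. CXCR4, a chemokine receptor well known from metastasis work, was at 0.0222, 0.0757 and 0.219 CPM in MDA-MB-231, and VCAM1 had 0 counts. IL11 and CTGF, both osteolysis genes of that literature, were at 35.8, 23.4 and 17.8 and 1558, 1309.7 and 805 CPM, above all other libraries. Neither passed against every line, since the log2 fold change of IL11 was 0.69 ± 0.31 against SKOV3 and that of CTGF fell just short of 1.5 against OVCAR8.

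Of 23 tested cytokines and chemokines, 0 were called high and 1 low, with a median of -0.82. That gene was CXCL16, a transmembrane chemokine, at 0.0887, 0.101 and 0.0488 CPM against 0.843 to 61.8 CPM. IL1A was at 24.1, 3.89 and 2.46 CPM and LIF at 217, 93.3 and 76.2 CPM, with the control library highest in both. The 6 tested caveolae genes had 0 calls in either direction, and CAV1 was at 453, 541 and 568 CPM within the range of the other lines (90.1 to 951 CPM).

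Of 30 tested matrix and integrin genes, 1 was called high and 3 low, with a median of -0.20. COL13A1, a transmembrane collagen, was at 415, 388 and 348 CPM against 0.0224 to 28.5 CPM, with the lowest MDA-MB-231 library 12.2-fold above the highest other, and each SKOV3 library had 1 count. FBN2, which encodes fibrillin-2, was absent from MDA-MB-231 (2, 1 and 0 counts) and at 4.05 to 136 CPM elsewhere. ITGA4, the alpha 4 integrin subunit, had 0 counts in MDA-MB-231 and 0.953 to 36.9 CPM elsewhere. LAMB1, a laminin chain, was at 67.2, 50.1 and 54.2 CPM against 157 to 348 CPM, and its log2 fold change against OVCAR8 was -1.54 ± 0.17, close to the limit. Without the SIVA-WT library of MDA-MB-231 or of OVCAR8, LAMB1 was not called. Without the OVCAR8 control library, THBS1 was not called.

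Of the 85 absent genes, 46 had 0 counts in all 3 MDA-MB-231 libraries, and 14 were over 10 CPM in every other library. The median over the absent genes of the lowest level in the other lines was 2.21 CPM, and the highest was 58.0 CPM, in MTAP. CPM is not per length, so this order is one of read share. MTAP, the methionine salvage enzyme whose gene is often lost with CDKN2A, had 0 counts in MDA-MB-231 and 57.99 to 99.6 CPM elsewhere. It was at least 766-fold lower in MDA-MB-231, from the lowest other library to the largest limit of 3 counts in a MDA-MB-231 library. NETO2, an auxiliary subunit of kainate receptors, had 2, 2 and 0 counts against 54.5 to 199.7 CPM. DAPK1, a death-associated kinase, had 2, 0 and 1 counts against 50.6 to 129 CPM. CPPED1, a phosphatase, had 0, 0 and 2 counts against 41.5 to 72.8 CPM.

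KCTD15, a transcriptional repressor of neural crest formation, had 0 counts against 24.7 to 59.7 CPM, at least 326-fold lower. SLC19A1, the reduced folate carrier through which cells take up methotrexate, had 0, 1 and 3 counts against 21.5 to 61.5 CPM. GPC4, a glypican, and TMLHE, the first enzyme of carnitine synthesis, both on chromosome X, had 0 counts against 12.5 to 55.5 and 7.47 to 14.1 CPM. INHBA, the activin subunit, had 0, 1 and 1 counts against 7.13 to 138 CPM. PRAME, a cancer-testis antigen, had 0 counts against 17.9 to 229 CPM. PLAGL1, an imprinted zinc finger factor, and H2AFY2, which encodes the macroH2A2 histone, were absent by the same rule, with 1, 1 and 2 and 1, 0 and 0 counts.

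Low genes that kept some counts included BST2 and PHGDH. BST2 encodes tetherin, an interferon-induced virus restriction factor, and was at 0.288, 0.227 and 0.195 CPM against 73.2 to 327 CPM. PHGDH, the first enzyme of serine synthesis, was at 1.82, 1.79 and 0.341 CPM against 39.9 to 339 CPM, with the lowest other library 21.9-fold above the highest of MDA-MB-231. MGMT, the repair enzyme for O6-methylguanine, and TLE4, a Groucho corepressor, had 0 counts in MDA-MB-231 against 2.21 to 24.7 and 5.60 to 20.04 CPM. HLA-F, a nonclassical class I gene, had 0, 4 and 0 counts against 5.34 to 52.8 CPM. PHGDH, MGMT, TLE4 and HLA-F, like CD44, GSTM2, GSTM4 and NF1 above, were picked after their values were seen.

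**Figure D4:**
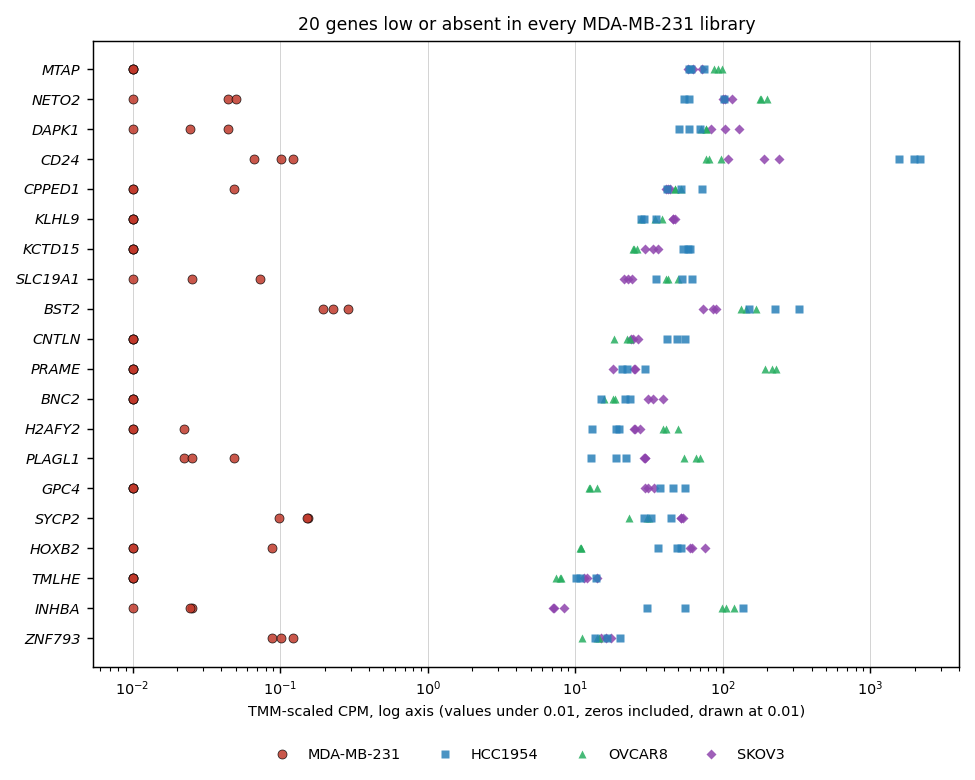
The 20 low or absent genes with the largest ratio of the lowest other library to the highest MDA-MB-231 library (counts under 3 set to 3), in TMM-scaled CPM on a log axis; each point is 1 library, coloured by line, and values under 0.01 are drawn at 0.01. The MDA-MB-231 points lie at or near the left edge while all 9 other points of each gene lie above 7 CPM.

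The promoters of the absent genes held about as many CpG as those of all genes. A RefSeq window of 300 bases was found for 64 of their 79 protein-coding members, and the median number of CpG dinucleotides in it was 27.5 (range 1 to 54), beside 26 over the 11737 windows of tested protein-coding genes. Over 15 CpG were counted in 75% of the former and 77.3% of the latter. The 2 absent genes with the highest CPM elsewhere are shown as examples, with 15 CpG in MTAP and 54 in NETO2. Capitals mark each CpG, the site of DNA methylation, which was not measured here.
MTAP (chr9:21802386-21802685, plus strand): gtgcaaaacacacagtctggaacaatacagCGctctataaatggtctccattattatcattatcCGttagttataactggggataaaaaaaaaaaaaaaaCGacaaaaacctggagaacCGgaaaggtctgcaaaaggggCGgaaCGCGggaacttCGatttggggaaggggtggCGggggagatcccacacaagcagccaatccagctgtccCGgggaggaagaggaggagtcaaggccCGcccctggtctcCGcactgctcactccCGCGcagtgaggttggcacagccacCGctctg
NETO2 (chr16:47143896-47144195, minus strand): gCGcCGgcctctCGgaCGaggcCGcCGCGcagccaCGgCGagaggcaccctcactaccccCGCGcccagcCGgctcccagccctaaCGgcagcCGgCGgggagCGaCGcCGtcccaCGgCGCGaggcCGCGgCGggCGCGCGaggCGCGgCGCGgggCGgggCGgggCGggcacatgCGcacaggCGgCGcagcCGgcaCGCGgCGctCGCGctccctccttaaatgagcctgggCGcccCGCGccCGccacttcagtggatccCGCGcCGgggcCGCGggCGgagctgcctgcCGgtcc

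MTAP lies in a stretch of chromosome 9 in which neighbouring genes had no counts. Genes were placed by symbol on GRCh38, and a gene was informative where another line had it at 1 CPM or more in all 3 libraries or the line itself reached 1 CPM. On 9p, 10 informative genes in a row had 0 counts in all 3 MDA-MB-231 libraries, from HACD4 to ELAVL2 (chr9:20999509-23850601). They were HACD4, KLHL9, MIR31HG, IFNE, MTAP, CDKN2A, CDKN2B-AS1, CDKN2B, DMRTA1 and ELAVL2. KLHL9, an adaptor of a mitotic ubiquitin ligase, was at 27.8 to 47.5 CPM in all other libraries, and MTAP and KLHL9 were the 2 genes of the run at 1 CPM or more in every other library.

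CDKN2A, which encodes p16INK4A and p14ARF, was at 50.3 to 71.02 CPM in HCC1954 and 128 to 146 CPM in OVCAR8, but SKOV3 also had 0 counts. CDKN2B, which encodes p15INK4B, was at 43.6 to 80.5 CPM in HCC1954 and 6.58 to 7.86 CPM in OVCAR8, again with 0 counts in SKOV3. SKOV3 kept MTAP (57.99 to 72.8 CPM) and KLHL9 (45.7 to 47.5 CPM), so genes at 0 counts reached further in MDA-MB-231. Of the 7 genes listed for this block, 4 were called low (MTAP, KLHL9, IFNE and DMRTA1), and all 7 had 0 counts in MDA-MB-231. The list was chosen with these results known.

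A second run lay nearer the end of the arm, with C9orf92, BNC2, CNTLN and SH3GL2 at 0 counts (chr9:16203935-17797124). BNC2, a zinc finger factor, was at 15.1 to 39.3 CPM and CNTLN, a centrosomal protein, at 18.4 to 55.5 CPM in the other lines. Between the runs, 9 informative genes were counted in MDA-MB-231, among them ADAMTSL1 (95.1 to 154 CPM, against at most 15.2 CPM elsewhere), RRAGA (43.8 to 52.1 CPM), HAUS6 (75.7 to 84.3 CPM) and RPS6 (932 to 1061 CPM). FOCAD, the last gene before the longer run, was at 2.98 to 4.68 CPM in MDA-MB-231 and at 32.6 to 55.1 CPM elsewhere. TUSC1, the next informative gene beyond it, was counted at 4.16 to 6.46 CPM. DNA copy number was not measured in these libraries, and its part in these values was not tested.

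**Figure D5:**
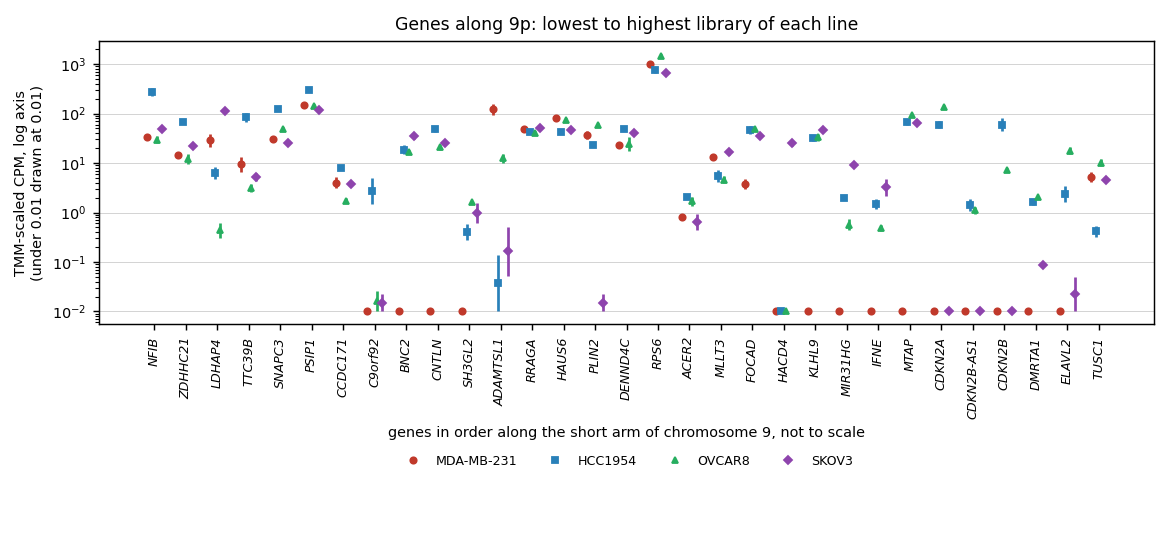
Level of 31 informative genes along the short arm of chromosome 9, in order and not to scale, with 1 vertical line per cell line from its lowest to its highest library and a marker at their geometric midpoint, in TMM-scaled CPM on a log axis (values under 0.01 drawn at 0.01). MDA-MB-231 falls to 0 counts at C9orf92 to SH3GL2 and again at HACD4 to ELAVL2, while SKOV3 is at 0 counts at CDKN2A, CDKN2B-AS1 and CDKN2B and HACD4 is counted in SKOV3 alone.

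Over the whole genome, MDA-MB-231 had more such silent genes than the other lines. At most 3 counts in all 3 libraries were found for 1099 of its 14420 informative genes (7.62%), against 4.92% in HCC1954, 3.90% in OVCAR8 and 5.37% in SKOV3. Most of these genes were not used by every other line. Those at 1 CPM or more in every library of all 3 other lines numbered 83 in MDA-MB-231. By that measure HCC1954 had more (100), and OVCAR8 (32) and SKOV3 (43) had fewer. Runs of at least 4 silent neighbours numbered 21 in MDA-MB-231, against 11 in SKOV3, 7 in OVCAR8 and 5 in HCC1954. The longest run in MDA-MB-231 had 11 genes, all of the PCDHA cluster on chromosome 5 (chr5:140786140-141012347). Another run held 7 genes of the neighbouring PCDHB cluster. PCDHA genes share exons, so their counts are not independent. Many other runs were shared in whole or in part. The run of 6 kallikrein genes was silent in SKOV3 too, with 5 of them silent in OVCAR8. The type II keratin run (KRT75 to KRT4) lay within a longer silent run of OVCAR8, and the HOXC run within one of SKOV3. The HOXD run of 4 genes was silent in HCC1954, as were 5 of the 8 zinc finger genes on chromosome 19.

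The HOX genes, which fix position along the body axis, gave another group of missing transcripts. Of 34 tested HOX genes (39 listed), 0 were called high and 9 were called low in MDA-MB-231, with a median log2 fold change of -4.46. In the HOXA cluster 7 of the 11 genes were called low, and 10 of 11 had at most 3 counts in every MDA-MB-231 library. At 1 CPM or more in all 3 libraries stood 0 HOXA genes in MDA-MB-231, 8 in HCC1954 and 5 each in OVCAR8 and SKOV3. HOXA3 and HOXA10 met the rule for absent genes. HOXA3 was at 1.997 to 26.9 CPM and HOXA10 at 3.88 to 8.04 CPM in the other lines. The run of silent neighbours reached to HOXA11, and HOXA13, at the end of the cluster, was at 0.266, 0.530 and 0.658 CPM in MDA-MB-231.

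The other clusters were used in part. In the HOXB cluster 2 of 10 genes were called low. HOXB2 was at 0.0887, 0 and 0 CPM against 10.7 to 75.4 CPM and HOXB7 at 1.60, 1.34 and 0.756 CPM against 12.4 to 83.3 CPM. HOXB9, in contrast, was at 65.5, 46.5 and 23.1 CPM in MDA-MB-231 and overlapped both OVCAR8 (24.3 to 31.9 CPM) and SKOV3 (43.9 to 54.4 CPM). Its log2 fold change against SKOV3 was -0.21 ± 0.23 (edgeR FDR = 0.45). In the HOXC cluster 1 of 9 genes reached 1 CPM in all MDA-MB-231 libraries and 0 did in SKOV3, against 7 each in HCC1954 and OVCAR8. In the HOXD cluster 0 of 9 did in MDA-MB-231 or HCC1954.

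Cancer-testis antigens, which are germ cell genes that tumours often switch on, were mostly silent in MDA-MB-231. Of 10 tested (21 listed), 0 were called high and 1 low (PRAME), with a median of -5.51, and 17 of the 21 had at most 3 counts in every MDA-MB-231 library. MAGEA3 and MAGEA6 had at most 1 count there, against 73.3 to 89.8 and 74.01 to 87.4 CPM in HCC1954. In OVCAR8 both also had at most 3 counts in every library, so their silence was not particular to MDA-MB-231. These MAGEA genes and the SPANX genes have near-identical copies, so reads can be split between them. SPANXB1 was the exception at 113, 114 and 97.7 CPM, a level it also had in SKOV3 (55.8 to 132 CPM). With it, the 21 listed genes summed to 98.1 to 115 CPM in MDA-MB-231, within the 92.3 to 233 CPM of the other libraries.

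Some of the genes that set MDA-MB-231 apart varied widely among its own 3 libraries. Of the 175 high genes, 23 (13.1%) differed over 2-fold between the highest and the lowest MDA-MB-231 library, beside 477 (3.84%) of the 12424 genes at 1 CPM or more in all 3. These sets were not matched on level, so no difference in spread is drawn from the shares. The control was the highest library in 19 of these 23 genes and the lowest in 4. Among the 477 genes the control was the highest library in 313 and the lowest in 142. PAEP, PAPPA2, PYY, EREG, CACNA2D4 and FERMT3 were among those with the highest control. With 1 library per vector in this line, this difference was given no test, and the transfection, the selection and the library cannot be told apart.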

How the data were processed

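The deposited table holds the authors' read counts per gene for all 12 libraries, 1 column each. Per the labels and the study's methods, RNA was sequenced as stranded paired-end reads, aligned to GRCh38 with STAR (2.5.3a) and counted per gene. The annotation release is not given in the sources used here. A second deposited table of scaled values was not used. Positions and promoters came from RefSeq (GRCh38.p14), matched by symbol for 84.2% of the genes tested.

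Counts were fitted with edgeR 4.0.16 in R 4.3.3 (TMM scaling, low-count filter by line, quasi-likelihood test, Benjamini-Hochberg adjustment) with cell line and vector as terms, and MDA-MB-231 was contrasted with each other line and with their mean. All 57187 genes of the table were read and 19204 tested. The members and the gene lists were chosen with earlier results of these data known. Named genes are VIM, SIVA1, up to 8 called genes per list and its defining markers, the 20 highest and 20 lowest genes by gap between libraries, and the first 10 absent genes and 10 genes counted in MDA-MB-231 alone by CPM. Clone-like and antisense names were left out. Some named items are not reported here. Genes added after their values were seen are stated as such. Simulated counts over 16403 genes were run through the contrasts of MDA-MB-231. Of 104 genes changed by a log2 of 2 and of 96 changed by 3, 100% were called, with 0 false calls. Each of these sizes is above the fold limit for a call, so smaller changes near that limit were not tried. Whether the simulated counts vary as much as the real libraries was not tested. No rate of missed or false calls in the real contrasts is therefore drawn from them. DESeq2 1.42.0, limma 3.58.1, other scalings, filters and thresholds and leaving out each library or line were tried as alternatives. Figures were drawn with matplotlib 3.10.9.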

Additional observations from a re-analysis of the deposited data

How the results depend on the processing

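The counts of called genes depended most on the threshold and on the lines compared. With a log2 limit of 1 there were 951 high genes, with a limit of 3 there were 211 high and 524 low, and with glmTreat 369 high and 571 low. Without HCC1954 there were 899 high and 1397 low genes, without OVCAR8 1100 and 1632, and without SKOV3 911 and 1478. Asking for 1 CPM in every library of the higher side, a choice made after seeing the data, left 352 low genes. DESeq2 gave 531 high and 906 low, limma-voom 593 and 974, DESeq2 size factors 580 and 931, and a fit of all counted genes 734 and 972, which moved the median log2 fold change of all genes to -0.30.

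The library rule moved in the same way. A 2-fold limit gave 434 high and 349 low genes and an 8-fold limit 92 high. A limit of 0 counts gave 46 absent genes and 7 counted in MDA-MB-231 alone, and a limit of 10 counts gave 59 alone. A minimum of 0.5 CPM gave 49 alone, and 5 CPM gave 106 high, 80 low, 20 absent and 9 alone. The 4 libraries labelled control by themselves gave 395 high, 315 low and 70 alone. Without HCC1954 there were 290 high, 433 low, 211 absent and 51 alone, without OVCAR8 406, 391, 151 and 94, and without SKOV3 290, 414, 154 and 50. The rule asks for a condition in every library, and the scaling was kept. Leaving out libraries or lines could therefore only keep or raise its counts.

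Leaving out 1 library at a time gave 566 to 659 called high and 847 to 933 called low. The library rule then gave 176 to 233 high, 185 to 201 low, 85 to 93 absent and 32 to 38 alone. These library-rule counts could not fall, for the reason given above. Without the vector as a block in the model 597 genes were called high and 922 low. The block rests on a shared vector only, since deviations of same-vector libraries correlated from -0.251 to 0.315, with 7 of 18 pairs over 0.1, and no pairing was assumed. Over 86 named genes, 1535 of 1548 values kept both the sign of the fold change and whether the gene was called. Of the rest, 4 lost a call and 9, those of SIVA1, changed sign. PRSS51 was not called by DESeq2. The log2 fold change of SIVA1 against the mean of the other lines, 0.00, turned to -0.0177 with DESeq2 size factors, -0.00504 with library totals, -0.108 without the vector block. It ran from -0.223 to 0.264 when single libraries were left out. Depth limits a gene without counts to about 0.07 CPM, and each line is 1 culture history, so how far these differences extend to other stocks of MDA-MB-231 was not tested.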
